A study of Mus musculus with 12 samples.

Results

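Invariant natural killer T (iNKT) cells of the lung were compared with those of the thymus within the fraction that lacks the surface receptor CD244. The comparison used the 3 lung CD244-negative and the 3 thymus CD244-negative libraries, 6 of the 12 libraries of the series, and they were chosen by tissue and gate alone. Each library was made from 100 cells, freshly sorted from mice aged 6 weeks as TCRbeta+ NK1.1+ CD1d tetramer+ CXCR6+ and CD244-. The other 6 libraries hold the CD244+ cells of the same tissues, otherwise gated alike, and serve below only to ask whether a difference was larger in 1 of the subsets. The labels name no strain, treatment or sex, call the replicates independent library preparations and name no separate animals. The p-values below therefore weigh differences against the spread of these samples alone, and that spread may be technical.

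iNKT cells are T lymphocytes with a nearly fixed T cell receptor that recognises lipids presented by CD1d. They arise in the thymus, where some stay as long-lived mature cells, and settle in tissues such as lung and liver, where they release cytokines within hours of activation. Cells that live in barrier tissues have been reported to carry RNA of immediate early transcription factors and of the phosphatases, ubiquitin-editing enzymes and RNA-binding proteins that restrain signalling. Tissue and the preparation of its cells go together in this design, so their parts in such RNA cannot be told apart.

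Levels are given per 10000, that is, as molecules of a gene per 10000 molecules of its library. Rescaling to this common total was needed because each thymus column of the deposited table summed to 26890.5 units and each lung column to 19342.9. The lung CD244-negative libraries held 29696 to 32196 molecules and the thymus CD244-negative ones 60120 to 67478, so 1 molecule was worth 0.311 to 0.337 per 10000 in lung and 0.148 to 0.166 in thymus. Between replicates, the chi-square per degree of freedom was 1.15 to 1.26 in lung and 1.10 to 1.11 in thymus, little above counting noise. In bulk samples, fewer cells of a type and less RNA per cell cannot be told apart.

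The gate was visible in part. Cd244 had 0 molecules in all 6 libraries. It had 13 molecules over the thymus CD244-positive libraries but only 2 over the lung ones, so the 0 in lung cannot show the gate. Klrb1c, the gene of NK1.1, was seen at 4.04, 2.99 and 3.42 per 10000 in lung and 8.69, 6.48 and 7.87 in thymus, and Cxcr6 at 3.37, 4.31 and 4.66 against 6.37, 3.89 and 4.49. The 8 measured T and iNKT markers summed to 28.3 to 35.4 per 10000 in lung and 36.2 to 43.2 in thymus. Among them was Zbtb16, the gene of PLZF, the transcription factor that defines the lineage, at 1.35, 0.995 and 0.311 per 10000 in lung and 1.78, 1.35 and 0.665 in thymus. Markers of other cell types were scarce: 17 myeloid genes summed to 0.311 to 1.99 per 10000 in lung and 0.296 to 0.665 in thymus, with Lyz2 at 0 molecules in all 6 libraries. The 8 measured B cell markers summed to 0.332 to 0.621 in lung and 0 in thymus. The 11 lung epithelial markers summed to 1.66 to 3.70 in lung and 0 to 0.166 in thymus. Most of that was Scgb1a1, the secretoglobin of airway club cells, which had 14 molecules over the lung libraries and 0 over the thymus libraries (at least 9.86-fold higher when the thymus group is set to a floor of 3 molecules, limma adjusted p = 0.000474). The part of such free or carried-over RNA in the results was not tested.

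Of the 3157 genes tested, 284 (9.0%) differed between lung and thymus at a limma adjusted p (Benjamini-Hochberg) under 0.05. In lung 151 were higher (4.78%) and 133 lower (4.21%), and the median log2 fold change of all tested genes was -0.02. Counts of called list members below are to be read against these shares. The lists were chosen with earlier results of these data known, so such counts are no independent evidence. In 801 tested genes (25.4%) the 3 lung and 3 thymus values did not overlap. Lung lay above in 13.8% and below in 11.6%. Some genes, Rgs1 and Rgs2 among them, are on several lists, so the lists are not separate results. Genes that rose included Vps37b, Junb, Tnfaip3, Crem, Dusp1, Cxcr4 and the chemokine gene Ccl5. Ribosomal protein genes gave 52 of the 133 that fell, and Id2, Ptpn6, Fgl2 and Il7r were others. The balance depends on the scale: 53.2% of the calls were higher with the common total, 41.9% with median-ratio size factors, 42.7% with TMM scaling, 36.5% with a total that left out ribosomal protein, mitochondrial and immediate early genes, 21.1% without any rescaling and 46.9% over the genes with a mean of at least 2 per 10000. Leaving the ribosomal RNA row Rn45s and the small RNA row Rn4.5s out of the total gave 61.3%. The unrescaled values shift the median of all tested genes to -0.33 and the total without ribosomal protein, mitochondrial and immediate early genes shifts it to -0.12 (log2), so counts under them are to be read against those medians.

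**Figure D1:**
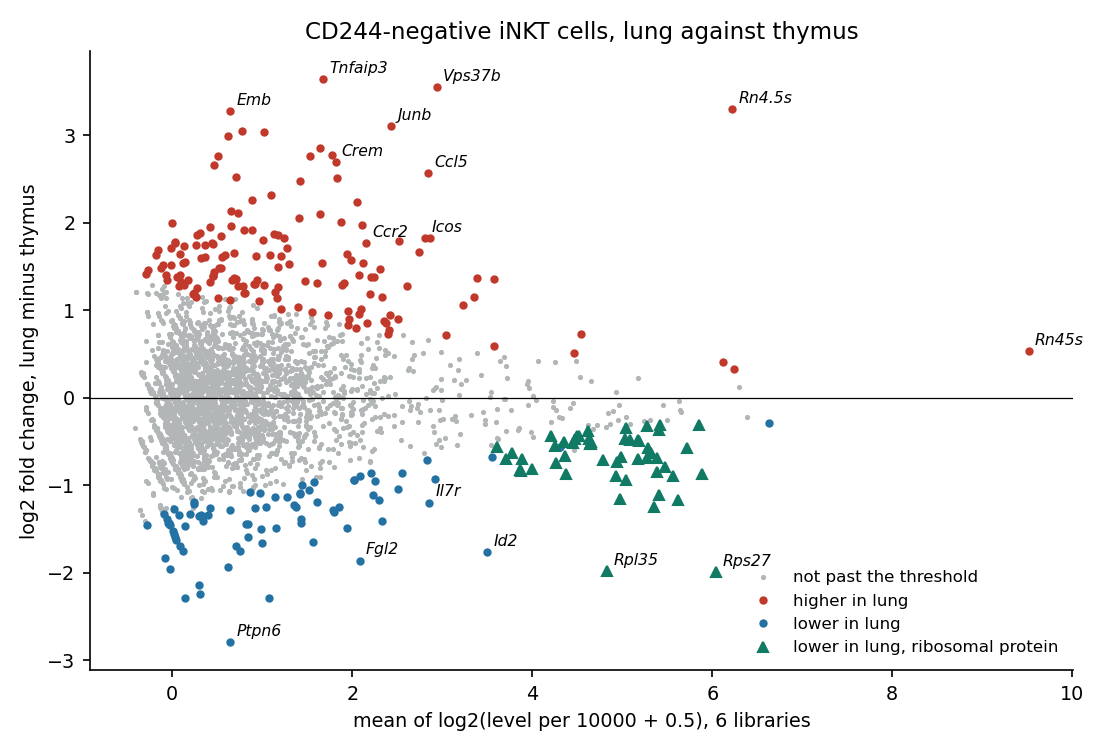
Log2 fold change, lung minus thymus, against the mean log2 level of each of the 3157 tested genes over the 6 libraries; red marks the 151 genes higher in lung, blue and green the 133 lower, green triangles the 52 ribosomal protein genes among them. The genes higher in lung range from low levels up to Rn45s, which ranks first in every library. The ribosomal protein genes form a band at high levels below 0.

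CREB and CREM, transcription factors of cyclic AMP signalling, bind a short palindrome, and 3 genes of the activation lists that rose carry it in full before their start. The 250 bases before the RefSeq start site (build GRCm38.p6) were searched on both strands for the cAMP response element TGACGTCA, marked in capitals. It lay in the windows of Dusp1 (chr17:26508473-26508722, minus strand), Btg2 (chr1:134079156-134079405, minus strand) and Ppp1r15a (chr7:45526269-45526518, minus strand), read 5′ to 3′:
Dusp1: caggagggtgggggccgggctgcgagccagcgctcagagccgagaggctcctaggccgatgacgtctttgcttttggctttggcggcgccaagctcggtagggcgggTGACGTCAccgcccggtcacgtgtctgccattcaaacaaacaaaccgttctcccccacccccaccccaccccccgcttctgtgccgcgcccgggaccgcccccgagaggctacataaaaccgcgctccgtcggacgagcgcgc
Btg2: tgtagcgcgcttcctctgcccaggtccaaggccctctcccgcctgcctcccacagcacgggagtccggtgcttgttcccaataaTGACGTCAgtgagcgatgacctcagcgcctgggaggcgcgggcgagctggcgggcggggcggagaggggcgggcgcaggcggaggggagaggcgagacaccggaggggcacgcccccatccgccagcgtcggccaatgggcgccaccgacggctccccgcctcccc
Ppp1r15a: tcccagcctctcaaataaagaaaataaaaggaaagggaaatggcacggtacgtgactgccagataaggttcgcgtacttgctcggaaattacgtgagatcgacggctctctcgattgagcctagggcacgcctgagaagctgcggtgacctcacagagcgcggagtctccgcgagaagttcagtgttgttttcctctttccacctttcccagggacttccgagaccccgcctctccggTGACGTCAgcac
Relative to the start site the palindrome begins at -143 in Dusp1, at -166 in Btg2 and at -12 in Ppp1r15a. These were 3 of the 14 called activation genes with a promoter entry, against 478 of 27025 genes with an entry (1.77%), 79 of 2494 tested genes and 3 of 106 genes higher in lung (2.83%, against 3.17% of the tested genes). None of the 3 is on the cAMP response list. The windows of Rgs2, Pde4b, Pde4d and Per1, the called members of that list with an entry, do not hold these letters. The gene with the largest log2 fold change among those named, Tnfaip3 (chr10:19015411-19015660, minus strand), is shown as chosen after its values were seen. Another entry of the gene (chr10:19011964-19012213, minus strand) holds none of the motifs searched. The window shown holds an AP-1 motif (TGANTCA) and 2 matches to the NF-kB consensus, all in capitals:
Tnfaip3: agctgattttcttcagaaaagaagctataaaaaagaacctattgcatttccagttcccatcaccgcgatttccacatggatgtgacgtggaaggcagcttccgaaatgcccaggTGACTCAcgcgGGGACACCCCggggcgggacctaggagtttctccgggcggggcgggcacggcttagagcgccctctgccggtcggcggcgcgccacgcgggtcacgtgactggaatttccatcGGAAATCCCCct
The AP-1 motif lay in 1 of the 14 activation genes and in 7.82% of all genes, and the NF-kB consensus in 4 of the 14 and in 8.23%. Of the 2494 tested genes with an entry 138 held the AP-1 motif and 275 the NF-kB consensus, and of the 106 genes higher in lung 6 and 16 did. Some genes have several windows, and a gene was counted if any of them held the motif. A match is a description of the letters, and no binding was measured here.

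Immediate early transcription factor genes were few but large in their change. Junb, a subunit of the AP-1 factor (chromosome 8, 84974484 to 84978718, mm10), was at 17.5, 12.6 and 16.5 per 10000 in lung and at 1.19, 0.897 and 2.16 in thymus. It rose by 3.11 ± 0.25 (log2 fold change ± SE, limma adjusted p = 6.49e-13). Fosl2, another AP-1 subunit, was at 6.4, 4.64 and 4.97 per 10000 against 0.148, 0.150 and 0.333 and rose by 3.04 ± 0.34 (limma adjusted p = 5.53e-09). In both genes every lung library lay above every thymus library. A rule by which both were named required this, and 13.8% of all tested genes showed it. Of the 12 AP-1 genes 3 were tested and 2 rose; the remaining tested gene, Jund, was at 3.70, 2.99 and 5.90 in lung and 3.70, 3.14 and 3.33 in thymus. Fos and Jun themselves were not tested: each had 0 to 3 molecules per lung CD244-negative library and 0 to 1 in thymus. In the lung CD244-positive libraries Fos had 41 to 47 molecules and Jun 15 to 25.

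Of 16 Egr, Nr4a and Ier genes 6 were tested, 3 rose and 1 fell, with a median log2 fold change of 0.91. Nr4a3, an orphan nuclear receptor gene that T cell receptor signals induce, had 31 molecules in lung and 1 in thymus, a ratio of shares of 65.5 (exact 95% interval 10.9 to 2669; limma adjusted p = 5.42e-07). Ppp1r15a, whose product directs a phosphatase to a translation initiation factor, had 13 molecules against 2 (ratio 13.7, 3.11 to 125; limma adjusted p = 0.00369). Klf6, a Krüppel-like factor gene, was at 4.38, 3.65 and 4.35 per 10000 in lung against 1.33, 2.99 and 1.66 (limma adjusted p = 0.0329). Myc, the transcription factor gene that drives cell growth, fell, with 2 molecules against 26 (share 6.15 times lower, 1.54 to 53.5; limma adjusted p = 0.012). Both calls depended on single libraries. Klf6 was no longer called without thymus replicate 1 (limma adjusted p = 0.218), thymus 3 (0.111), lung 1 (0.0738) or lung 3 (0.0769), nor under 5 of the 6 other scalings; it was called with the total without Rn45s and Rn4.5s. Myc was no longer called without thymus 1 (0.074), thymus 2 (0.0901), thymus 3 (0.0693) or lung 3 (0.0533).

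Genes whose products end a signal were among those that rose. Dusp1, which carries the cAMP element, encodes a phosphatase that inactivates MAP kinases (chromosome 17, 26505590 to 26562128). It was at 8.08, 6.97 and 6.21 per 10000 in lung and 0.445, 0.598 and 0.832 in thymus, a rise of 2.76 ± 0.30 (limma adjusted p = 3.60e-09). Dusp10, of the same family, had 28 molecules against 1 (ratio of shares 59.2, 9.78 to 2419; limma adjusted p = 9.95e-07). Of 13 MAP kinase phosphatase and Sprouty genes 4 were tested and 2 rose. Without the filter 9 were tested, 2 rose and 5 had a log2 fold change below 0. Dusp2, which acts in the nucleus, was at 1.68, 2.65 and 3.73 in lung and 4.74, 4.79 and 4.16 in thymus and did not pass the test (limma adjusted p = 0.0993). It was called lower in unrescaled values (limma adjusted p = 0.00158), with median-ratio size factors (0.0453), with the total without ribosomal protein, mitochondrial and immediate early genes (0.0276), with quantile normalization (0.0151), over genes with a mean of at least 2 per 10000 (0.045) and without lung replicate 3 (0.0282).

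Tnfaip3, the gene of the ubiquitin-editing enzyme A20 that limits NF-kB (chromosome 10, 19000910 to 19015657), was at 10.4, 12.9 and 9.32 per 10000 in lung and 0.296, 0.299 and 0.665 in thymus. It rose by 3.64 ± 0.29 (limma adjusted p = 9.16e-13), and the lung and thymus values were far apart. Tnip1, the gene of an A20-binding protein, had 16 molecules against 4 and rose by 1.6 ± 0.39 (limma adjusted p = 0.00448), a call lost without thymus replicate 2 (limma adjusted p = 0.0526). Of the 15 NF-kB genes and inhibitors 10 were tested, these 2 rose, none fell, and 9 of the 10 had a log2 fold change above 0 with a median of 0.86.

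The cAMP response list had the most members that rose among these groups, 7 of 11 tested (16 listed), with none lower and a median log2 fold change of 1.63. Of all tested genes 4.78% were called higher. The list was chosen with earlier results of these data known, that of Crem among them, so its count is no independent evidence. Without the filter all 16 were tested, 7 rose and the median was 0.95. Crem, the gene of a cAMP-responsive modulator of transcription, was at 7.41, 7.96 and 10.2 per 10000 in lung and 0.889, 0.449 and 1.5 in thymus (rise of 2.70 ± 0.29, limma adjusted p = 3.10e-09). Rgs2, which shuts off G protein signals, was at 9.77, 9.29 and 11.5 against 2.37, 2.24 and 3.16 (1.80 ± 0.23, limma adjusted p = 7.72e-08). Its relative Rgs1 was at 6.06, 3.32 and 5.90 against 1.19, 1.79 and 1.16 (1.55 ± 0.30, limma adjusted p = 0.000238). The phosphodiesterase genes Pde4b and Pde4d, whose products break down cAMP, rose by 1.64 ± 0.34 and 1.63 ± 0.37. The clock gene Per1 rose by 1.76 ± 0.39. Sik1, a kinase gene that cAMP induces, had 14 molecules against 1, a ratio of shares of 29.6 (4.5 to 1251). Pde4d and Sik1 fall outside the naming rule and were named after their values were seen. All 7 stayed called without each of the 6 libraries in turn.

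Of 14 mRNA decay genes 11 were tested, 2 rose and none fell, with a median log2 fold change of 0.41. The median was -0.05 in unrescaled values, 0.25 with the total without ribosomal protein, mitochondrial and immediate early genes, and 0.27 without lung replicate 1. Zfp36l2, which recruits the deadenylase to AU-rich RNA (chromosome 17, 84183931 to 84187947), was at 21.2, 16.3 and 18.6 per 10000 in lung and 7.89, 6.58 and 6.49 in thymus (1.36 ± 0.17, limma adjusted p = 5.56e-08). Btg2, an antiproliferative partner of the same deadenylase, was at 5.05, 8.29 and 6.21 against 2.96, 1.79 and 2.99 (1.19 ± 0.26, limma adjusted p = 0.00119). In both the groups did not overlap. A rule by which Zfp36l2 was named required this, and lung lay above thymus in 13.8% of all tested genes.

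**Figure D2:**
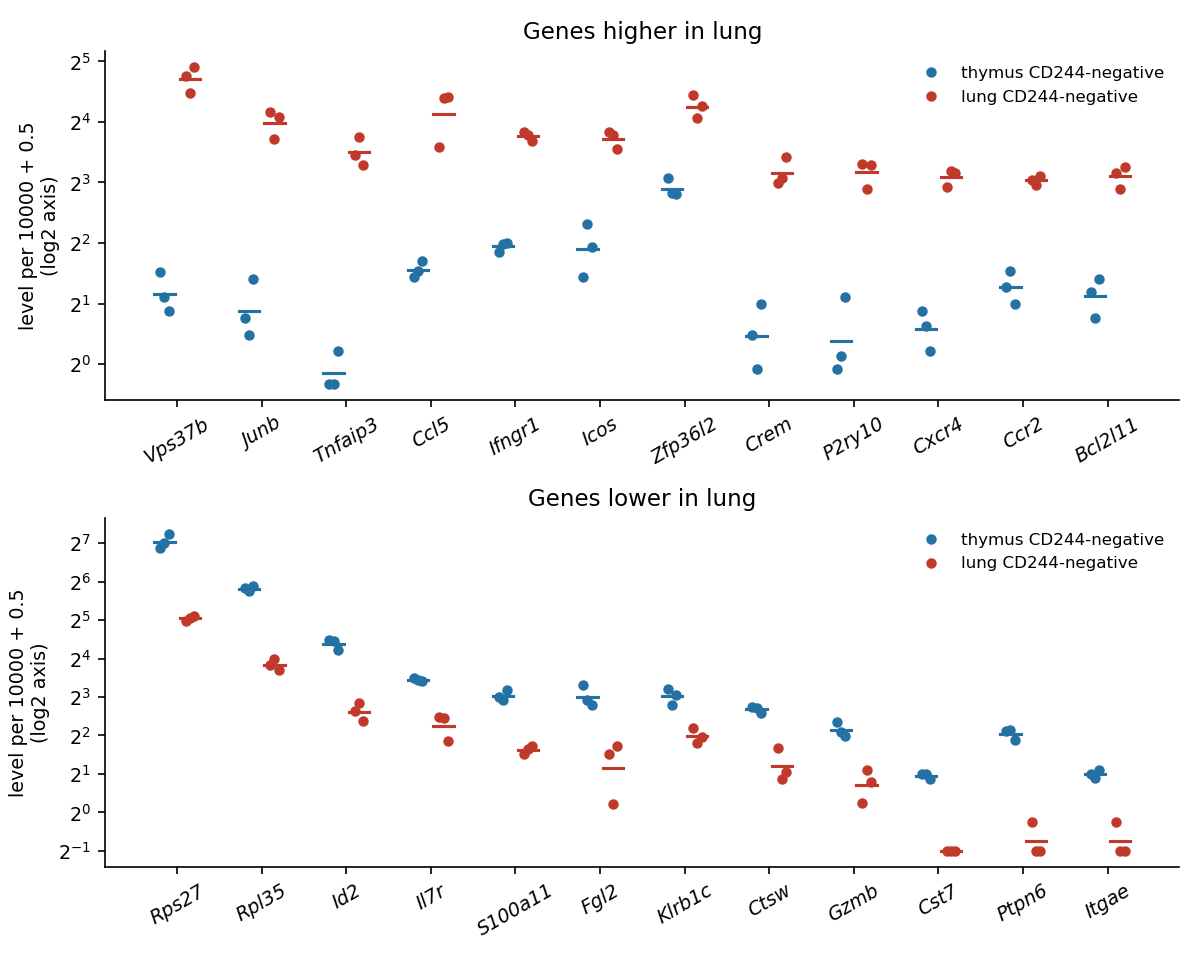
Level per 10000 plus 0.5 (log2 axis) in each of the 3 lung (red) and 3 thymus (blue) libraries for 12 genes higher and 12 genes lower in lung; points are libraries and bars the means on the log scale. In all 24 genes the red and blue points do not overlap, as in 25.4% of all tested genes. A naming rule required this of some of the 24.

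Genes of localisation also differed. Chemokine and related receptors gave 4 higher of 7 tested (17 listed), with none lower and a median log2 fold change of 1.63. These 4 include P2ry10, which is no chemokine receptor gene. It was put on the list with results of these data known, so its rise is no independent evidence. Without the filter 12 were tested, 4 rose, 6 had a log2 fold change below 0 and the median was 0.05. Cxcr4, the receptor of CXCL12 (chromosome 1, 128588199 to 128592293), was at 7.07, 8.62 and 8.39 per 10000 in lung and 1.33, 1.05 and 0.665 in thymus (2.51 ± 0.28, limma adjusted p = 4.87e-09). P2ry10, a lysophospholipid receptor gene, was at 9.43, 6.97 and 9.32 against 0.445, 0.598 and 1.66 (2.78 ± 0.30, limma adjusted p = 3.10e-09). Ccr2, the receptor of monocyte chemoattractants, was at 7.75, 7.30 and 8.08 against 1.93, 2.39 and 1.5 (1.77 ± 0.25, limma adjusted p = 1.10e-06). In each of these 3 genes every lung value lay above every thymus value. A rule by which Cxcr4 and P2ry10 were named required this, and 13.8% of all tested genes showed it. Cxcr6, the receptor within the gate, differed by -0.22 ± 0.25 on the log2 scale and was not called (limma adjusted p = 0.685).

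The residency list, genes linked to tissue-resident lymphocytes, had 10 of 17 members tested, of which 5 rose and 1 fell, with a median log2 fold change of 1.14. Vps37b and Emb were put on the list with results of these data known, so their rise is no independent evidence. The median was 0.65 with median-ratio size factors and with TMM scaling and 0.61 with the total without ribosomal protein, mitochondrial and immediate early genes, each with 11 tested and 2 lower. Without the filter the median was 0.20 over 16 genes, with 5 higher and 2 lower. Vps37b, which encodes a subunit of the endosomal sorting complex (chromosome 5, 124004641 to 124032270), had the smallest p of the genes that rose. It was at 26.6, 21.9 and 29.5 per 10000 in lung and 2.37, 1.65 and 1.33 in thymus (3.55 ± 0.21, limma adjusted p = 3.20e-17). Emb, the gene of the adhesion glycoprotein embigin, had 41 molecules in lung and 0 in thymus, at least 28.9-fold higher against the same floor (limma adjusted p = 4.58e-09). Bhlhe40, a transcription factor gene of resident and cytokine-producing T cells, rose by 1.96 ± 0.38, and Rgs1 and Rgs2 were the other members that rose. Itgae, the gene of the integrin chain CD103 that holds T cells to epithelium, went the other way with 1 molecule in lung and 29 in thymus, a share 13.7 times lower (2.28 to 561; limma adjusted p = 0.00159). With molecules thinned to the shallowest library Itgae was no longer called. Ahr, a ligand-activated transcription factor gene, was not tested and had 0 molecules in lung and 17 in thymus, at least 2.68-fold lower.

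Genes of egress and circulation did not move as 1 group. Of 20 listed, 16 were tested, 4 rose and 2 fell, with a median log2 fold change of 0.46. The median was 0.25 without thymus replicate 1, 0.24 without lung replicate 2 and 0.11 in unrescaled values. Klf2, the transcription factor gene that drives S1pr1, was at 1.35, 2.32 and 2.48 per 10000 in lung and 0, 0.449 and 0.333 in thymus (1.77 ± 0.39, limma adjusted p = 0.00128). S1pr1, the receptor for the lipid that draws T cells out of tissue, had 13 molecules against 1 (ratio of shares 27.5, 4.13 to 1167; limma adjusted p = 0.00187). Klf3 also rose, though not without lung replicate 1 (limma adjusted p = 0.0692), and Cxcr4 was the remaining one. S100a11, a calcium-binding protein gene of motile cells, fell from 7.56, 7.03 and 8.65 in thymus to 2.36, 2.65 and 2.80 in lung (-1.41 ± 0.24, limma adjusted p = 2.40e-05). S100a10, named after its values were seen, fell by 0.71 on the log2 scale (limma adjusted p = 0.0285). That call was lost without thymus replicate 1 (0.112), thymus 2 (0.0615), thymus 3 (0.0955), lung 1 (0.0906) or lung 2 (0.132).

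**Figure D3:**
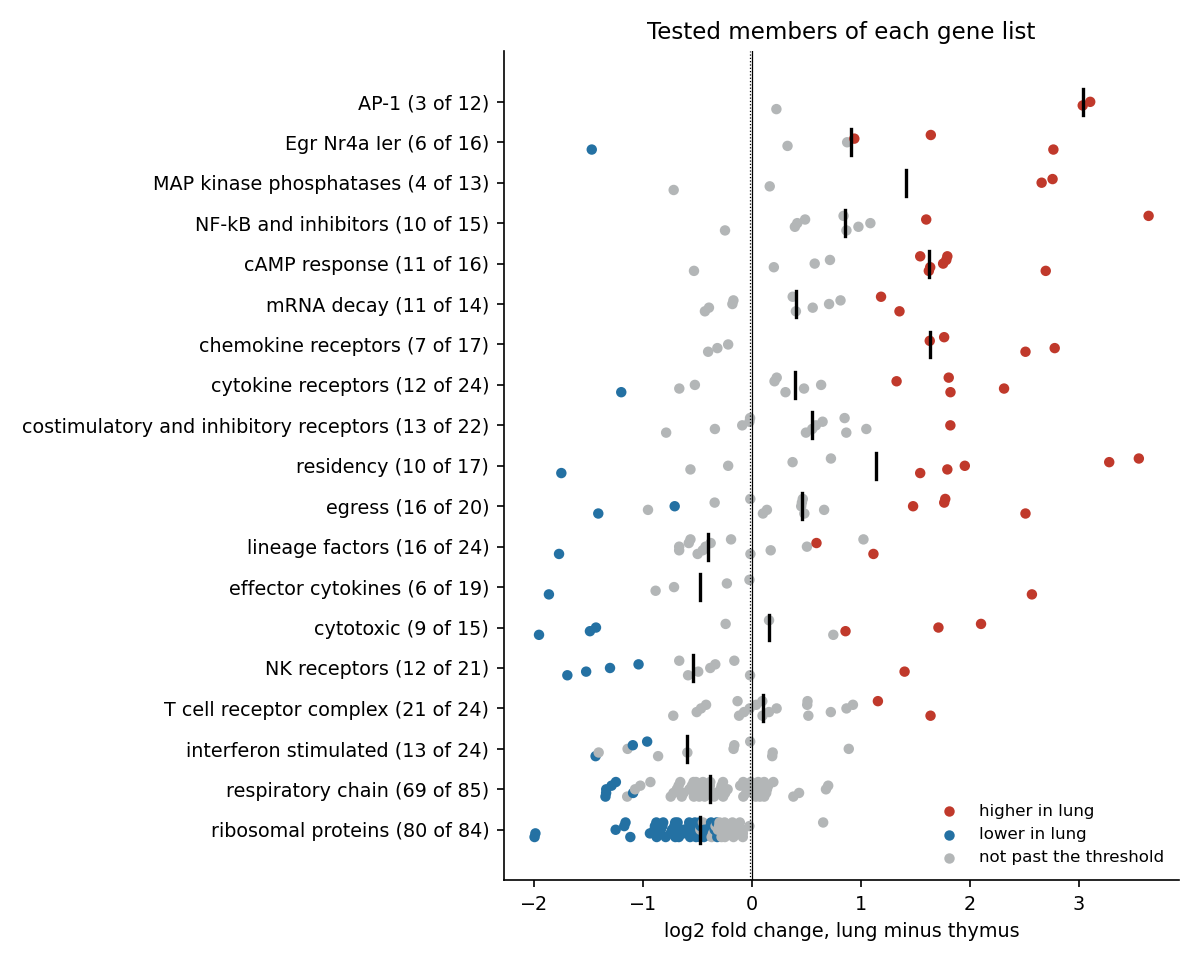
Log2 fold change, lung minus thymus, of the tested members of 19 gene lists, with the number tested of the number listed in brackets; red and blue points are genes called higher or lower in lung, black bars the list medians and the dotted line the median of all tested genes. The cAMP response and chemokine receptor lists have medians of 1.63, and the ribosomal protein list lies almost wholly below 0. Medians of lists with few tested members depend on the filter. Without it they were 0.95 for cAMP response, 0.05 for chemokine receptors, 0.33 for AP-1 and -0.26 for MAP kinase phosphatases. The ribosomal protein median stayed at -0.48.

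Among effector genes the products secreted or carried in granules changed in both directions. Ccl5, a chemokine gene (chromosome 11, 83525778 to 83530518), was at 11.4, 20.6 and 20.8 per 10000 in lung and 2.22, 2.39 and 2.74 in thymus (2.57 ± 0.22, limma adjusted p = 3.55e-12). Fgl2, the gene of a secreted fibrinogen-like protein with suppressive activity, fell from 9.48, 7.03 and 6.49 to 2.36, 0.663 and 2.80 (-1.86 ± 0.30, limma adjusted p = 9.95e-06). Of 19 effector cytokine genes 6 were tested, and these 2 were the called ones. The main cytokine genes Ifng and Il4 did not reach the level needed for a test.

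Cytotoxic genes gave 3 higher and 3 lower of 9 tested (15 listed). Gzmb, the gene of granzyme B, fell from 4.59, 3.74 and 3.49 per 10000 in thymus to 0.673, 1.66 and 1.24 in lung (-1.43 ± 0.32, limma adjusted p = 0.00149). Ctsw, a cathepsin gene of killer cells, fell from 6.22, 6.02 and 5.49 to 2.69, 1.33 and 1.55 (-1.48 ± 0.27, limma adjusted p = 0.000119). Cst7, which encodes an inhibitor of the proteases that process granzymes, had 0 molecules in lung and 28 in thymus, at least 4.42-fold lower (limma adjusted p = 0.00068). Other granule genes did not pass the test: Srgn, the gene of the granule proteoglycan, had a log2 fold change of 0.16 ± 0.19, Nkg7 of -0.24 ± 0.21 and Lamp1 of 0.75 ± 0.38, all named after their values were seen. The 2 serpin genes of the list, whose products inhibit granule proteases, rose: Serpinb6b by 2.10 ± 0.31 (limma adjusted p = 2.33e-06) and Serpinb9 by 1.71 ± 0.34 (limma adjusted p = 0.00041). Fasl, the death ligand gene, was at 5.05, 6.30 and 5.28 in lung and 3.11, 2.69 and 2.66 in thymus (limma adjusted p = 0.018) and was named after its values were seen. Its call was lost without thymus replicate 2 (limma adjusted p = 0.0651), thymus 3 (0.0658) or lung 2 (0.0644), and under 3 of the other scalings: unrescaled values, quantile normalization and the total without ribosomal protein, mitochondrial and immediate early genes.

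NK receptor genes, which mature thymic iNKT cells carry, gave 4 lower and 1 higher of 12 tested (21 listed), with a median log2 fold change of -0.54. Without the filter the median was -0.34 over 20 genes. Klrb1c fell by 1.04 on the log2 scale (SE 0.23, limma adjusted p = 0.00123). The Ly49 receptor gene Klra9 had 4 molecules in lung and 49 in thymus (-1.69 ± 0.37, limma adjusted p = 0.00135). Klrd1, the gene of CD94, was at 1.01, 0.995 and 4.35 per 10000 in lung and 5.93, 5.38 and 3.83 in thymus, so that lung replicate 3 lay within the thymus range. Its call (limma adjusted p = 0.00595) was lost without thymus replicate 1 (0.0981) or lung 2 (0.0671). Klra5 had 1 molecule against 25 (share 11.8 times lower, 1.94 to 486), and its call was lost without thymus 1 (limma adjusted p = 0.114) or thymus 3 (0.267). Klrc1, whose product NKG2A pairs with CD94, was the one that rose, at 5.39, 6.63 and 7.14 against 2.52, 2.64 and 1.33 (1.40 ± 0.27, limma adjusted p = 0.000179). Ly49 genes are near-identical copies of one another, and how the counting split reads between them is not given in the sources used here. The 8 NK cell markers summed to 0.498 to 1.35 per 10000 in lung and 1.72 to 4.45 in thymus, and the part of NK cells in these values was not tested.

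Cytokine receptors gave 4 higher and 1 lower of 12 tested (24 listed). Ifngr1, the ligand-binding chain of the interferon gamma receptor (chromosome 10, 19591949 to 19610229), was at 13.8, 13.3 and 12.4 per 10000 in lung and 3.11, 3.48 and 3.49 in thymus (1.82 ± 0.20, limma adjusted p = 3.74e-09). Il21r rose by 2.32 ± 0.34 (limma adjusted p = 1.95e-06) and Il4ra by 1.81 ± 0.35 (limma adjusted p = 0.000222). Ifnar1, a chain of the type I interferon receptor, also rose (limma adjusted p = 0.0161), but not without thymus replicate 1 (0.0529), thymus 3 (0.115) or lung 2 (0.0504). Il7r, the receptor of the survival cytokine interleukin 7, fell from 10.8, 10.5 and 10.1 in thymus to 5.05, 4.98 and 3.11 in lung (-1.20 ± 0.21, limma adjusted p = 4.92e-05). Downstream of such receptors, the signal inhibitor gene Socs2 rose by 1.63 ± 0.38 (limma adjusted p = 0.0028). Ptpn6, the gene of the phosphatase SHP-1, had 1 molecule in lung and 71 in thymus, a share 33.6 times lower (5.84 to 1346; limma adjusted p = 2.17e-07).

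Interferon-stimulated genes gave 3 lower and none higher of 13 tested (24 listed), with a median log2 fold change of -0.59. None of the 13 was called without thymus replicate 1, 2 or 3. The median was -0.27 without lung replicate 3 and -0.23 over 22 genes without the filter. Igtp and Irgm1, both genes of interferon-induced GTPases, had 9 and 1 molecules in lung against 46 and 22 in thymus, and the share of Irgm1 was 10.4 times lower (1.68 to 430). Leaving out thymus replicate 1, 2 or 3 gave limma adjusted p-values of 0.124, 0.159 and 0.153 for Igtp and of 0.229, 0.0504 and 0.133 for Irgm1. Igtp was also lost without lung replicate 1 (limma adjusted p = 0.189).

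The called receptor and costimulation genes of T cells all rose. Their counts are small and are to be read against the 4.78% of all tested genes called higher. Icos, a costimulatory receptor gene (chromosome 1, 60977927 to 61000320), was at 13.8, 13.3 and 11.2 per 10000 in lung and 2.22, 4.49 and 3.33 in thymus (1.82 ± 0.22, limma adjusted p = 2.68e-08), and was the only called gene of 13 tested costimulatory and inhibitory receptors (22 listed). The median log2 fold change of those 13 was 0.55, or 0.36 without thymus replicate 1 and 0.19 in unrescaled values. Their list summed to 30.9 to 38.5 per 10000 in lung and 14.2 to 21.5 in thymus. Of 21 tested T cell receptor complex genes 2 rose, among them the surface glycoprotein gene Thy1, at 5.05, 6.97 and 9.63 per 10000 in lung and 2.37, 2.54 and 3.83 in thymus (1.16 ± 0.25, limma adjusted p = 0.00123). The median of that list was 0.10 and turned to -0.31 in unrescaled values, and to -0.04 both with quantile normalization and with the total without ribosomal protein, mitochondrial and immediate early genes. Cd3e, a chain of the receptor complex, was at 3.70, 2.32 and 2.48 in lung and 3.56, 4.34 and 4.66 in thymus and did not pass the test (limma adjusted p = 0.288).

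Of the transcription factors that sort iNKT cells into lineages, 16 of 24 were tested, 2 rose and 1 fell, with a median log2 fold change of -0.40, or -0.13 without lung replicate 3 and -0.71 in unrescaled values. Id2, an inhibitor of E proteins that iNKT cells need to survive and mature (chromosome 12, 25093799 to 25097140), fell from 21.7, 21.4 and 18.1 per 10000 in thymus to 5.72, 6.63 and 4.66 in lung (-1.77 ± 0.17, limma adjusted p = 2.17e-10). Ets1 and Foxo1 were the genes called higher, with log2 fold changes of 0.59 ± 0.17 and 1.12 ± 0.37. Neither was called in unrescaled values, with median-ratio or TMM scaling, or with the total without ribosomal protein, mitochondrial and immediate early genes. Ets1 (limma adjusted p = 0.0157) was lost without thymus replicate 1 (0.154) or lung 3 (0.0708), and Foxo1 (limma adjusted p = 0.0489) without thymus 1 (0.193), thymus 2 (0.0777), thymus 3 (0.151), lung 1 (0.173) or lung 2 (0.0671). The lineage-defining genes did not pass the test: Zbtb16 had a log2 fold change of -0.38 ± 0.39, the NKT1 factor gene Tbx21 of -0.45 ± 0.43 and the NKT2 factor gene Gata3 of 0.17 ± 0.26. Zbtb16 and Gata3 were named after their values were seen.

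Among genes of early thymic stages 6 of 20 were tested. Satb1, a chromatin organiser of developing T cells, was at 12.5, 12.9 and 13.7 per 10000 in lung and 5.48, 5.98 and 6.49 in thymus (1.06 ± 0.18, limma adjusted p = 3.31e-05). Izumo1r, the gene of folate receptor 4, fell (-1.22 ± 0.33, limma adjusted p = 0.0119), though not without thymus replicate 2 (0.0846), thymus 3 (0.0633) or lung 1 (0.0529). Markers of double-positive thymocytes summed to 1.24 to 2.32 per 10000 in lung and 0.998 to 1.26 in thymus. Bcl2l11, the gene of the death-promoting protein BIM (chromosome 2, 128126038 to 128162547), was the called gene of 10 tested survival genes (18 listed), at 8.42, 6.97 and 9.01 in lung against 1.78, 1.20 and 2.16 (1.98 ± 0.26, limma adjusted p = 1.75e-07). No glycolysis gene (11 tested of 18), no MHC class I gene (11 of 15) and no cell cycle gene (5 of 24) was called, though MHC class I genes gave up to 3 higher under the other scalings. The cytokine signalling, integrin, heat shock, actin, chromatin and Gimap lists gave at most 2 calls in either direction each.

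Ribosomal protein genes were the largest group to differ. Of 84 listed 80 were tested, 52 fell and none rose, against 4.21% of all tested genes called lower, and the median log2 fold change was -0.48. As a group they summed to 1883 to 1917 per 10000 in the lung libraries and 2764 to 2981 in the thymus libraries. Rps27, of the small subunit (chromosome 3, 90212522 to 90213651), was at 30.8, 32.5 and 34.2 per 10000 in lung and 116, 128 and 151 in thymus (-1.99 ± 0.09, limma adjusted p = 6.09e-21). Rpl35, of the large subunit (chromosome 2, 39001580 to 39005624), was at 13.8, 15.3 and 12.4 against 56.3, 53.4 and 58.5 (-1.99 ± 0.12, limma adjusted p = 4.52e-17). Rpl32, Rpl41 and Rps28 followed at -1.25, -1.17 and -1.11. The members did not fall alike, since the tested ones ran from these values to others near or above 0. The number called depends on the scale: 24 lower and 2 higher with quantile normalization, 36 to 49 lower on leaving out 1 library, 41 lower without Rn45s and Rn4.5s in the total, and 78 lower in unrescaled values.

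**Figure D4:**
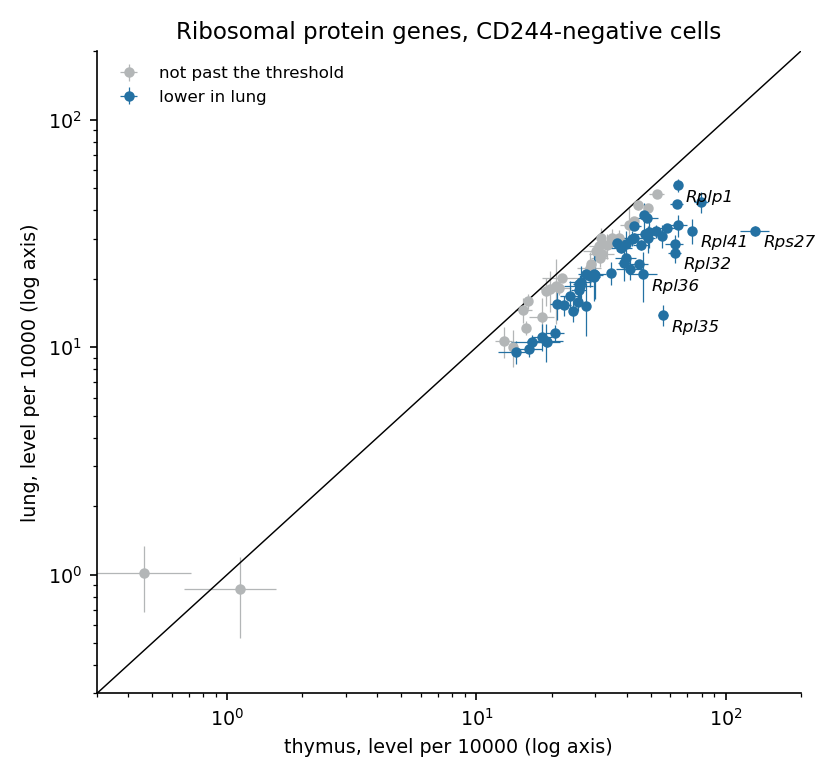
Mean level per 10000 in thymus (horizontal) and lung (vertical) of the 80 tested ribosomal protein genes, both on log axes; points are genes, error bars the SD over 3 libraries, and the line marks equal levels. The 52 genes called lower (blue) lie below the line, with Rps27 and Rpl35 farthest from it.

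Nuclear genes of the respiratory chain gave 6 lower and none higher of 69 tested (85 listed), with a median log2 fold change of -0.38. Cox4i1, a subunit of cytochrome c oxidase, was at 1.68, 2.32 and 1.24 per 10000 in lung and 5.04, 4.79 and 4.82 in thymus (-1.29 ± 0.28, limma adjusted p = 0.00128). The count was 1, 3 and 2 without thymus replicates 1, 2 and 3 in turn, 6 or 7 without a lung library, and 9 to 20 under the other scalings except the total without Rn45s and Rn4.5s (5). Lower genes were also short. The median length of the longest annotated transcript was 1440 bases in the 132 lower genes with a length. It was 3113 in the 147 higher genes and 3439 in all tested genes. Without ribosomal protein genes it was 2542 in the lower genes and 3510 in all tested genes. Outside the ribosomal proteins, 7.73% of genes under 1000 bases and 1.76% of genes over 4000 bases were lower. The shares called higher in these 2 classes were 6.76% and 4.73%. The part of transcript length in these values was not tested. With molecules thinned to the shallowest library 133 genes were higher and 111 lower.

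The RNA of non-coding rows moved too. Rn4.5s, a small RNA row, was at 282, 204 and 220 per 10000 in lung and 18.5, 22.9 and 29.6 in thymus (3.30 ± 0.16, limma adjusted p = 7.72e-08), and the ribosomal RNA row Rn45s at 950, 919 and 780 against 595, 650 and 582 (0.53 ± 0.07, limma adjusted p = 0.000109). Rn45s was not called in unrescaled values, and quantile normalization sets its difference to 0 because it ranks first in every library. Xist, which is transcribed from the inactive X of female cells, had 0 molecules in each lung library and 18, 12 and 9 in thymus, at least 6.15-fold lower (limma adjusted p = 2.76e-05). Genes of the Y chromosome (4 examined) had 9, 7 and 8 molecules in lung and 10, 17 and 13 in thymus. Xist was named after its values were seen. Each thymus library thus held both and each lung library the Y genes only, so the sex of the mice and the tissue cannot be told apart for any of the 284 genes.

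To ask whether these differences were larger in 1 subset, the lung minus thymus effect in CD244-negative cells was compared with that in CD244-positive cells. In the latter 329 of the 3157 genes (10.4%) were called, 136 of them with the same sign as a call in CD244-negative cells. The difference of the effects was called for 33 genes (1.05%), 15 of which were among the 284. Ccl5 rose by 2.57 in CD244-negative cells and had 0.23 in CD244-positive cells (difference 2.34 ± 0.45, limma adjusted p = 0.0242). Summed over libraries, it had 609 molecules in lung and 651 in thymus CD244-positive cells, against 163 and 48 in CD244-negative cells. Its level was thus already high in thymus CD244-positive cells. Ccr2 had 1.77 and 0.12 (difference 1.65 ± 0.38, limma adjusted p = 0.0105), Ifngr1 1.82 and 0.64 (1.18 ± 0.29, 0.0153) and Klrc1 1.40 and -0.34 (1.74 ± 0.38, 0.00491). Gimap6, a GTPase gene of lymphocyte survival at 9.09, 9.95 and 8.08 per 10000 in lung CD244-negative cells against 3.56, 3.14 and 3.53 in thymus, had 1.28 and -0.82 (difference 2.10 ± 0.40, limma adjusted p = 0.000431). Ly6c2, a surface antigen gene of memory T cells, had 1.16 and -0.43 (1.58 ± 0.28, limma adjusted p = 0.000135). Ptpn6 fell in CD244-negative cells and had -0.54 in CD244-positive cells (difference -2.25 ± 0.49, limma adjusted p = 0.00384). For Junb, Tnfaip3, Crem and Cxcr4 the differences were 0.12 ± 0.36, 0.44 ± 0.46, 0.13 ± 0.43 and 0.29 ± 0.43, and none passed the test. The lung CD244-positive libraries hold RNA of other cells, with 70.3 to 133 per 10000 of the myeloid markers, 48.9 to 126 of the B cell markers and 10.9 to 22.2 of the T and iNKT markers, and its part in these differences was not tested. These libraries also differ in sex-linked RNA, with 19, 3 and 29 molecules of Xist and 4, 14 and 0 of the Y genes, and its part in the interaction was not tested. Without lung CD244-positive replicate 1 the number of genes whose effects differ was 56.

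**Figure D5:**
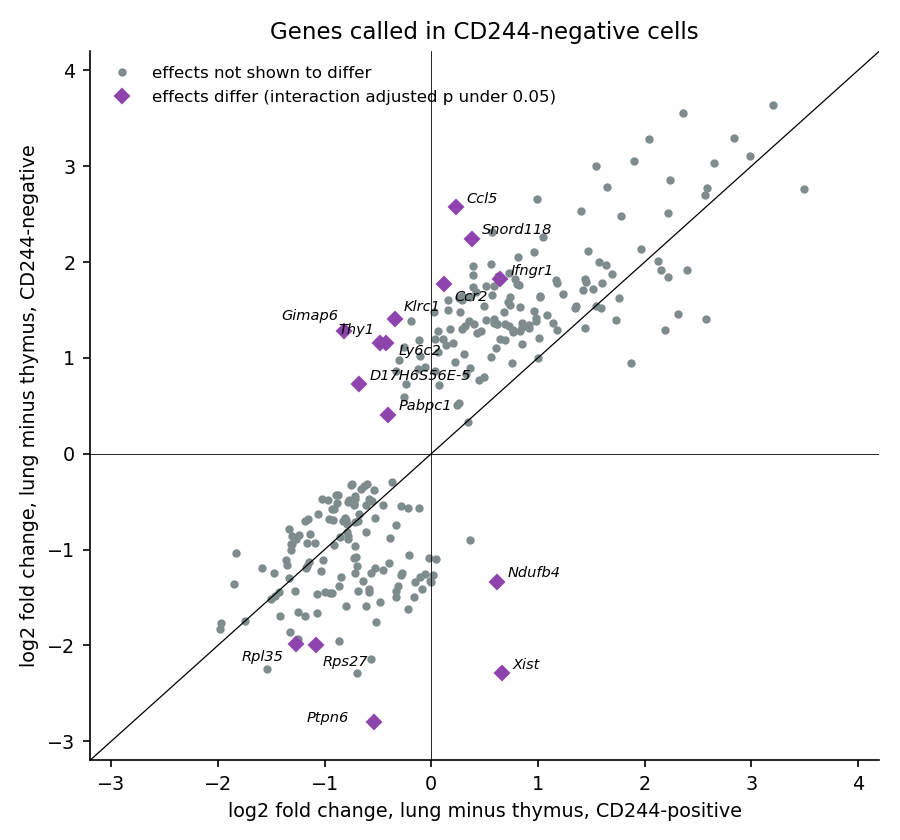
Log2 fold change, lung minus thymus, in CD244-positive (horizontal) and CD244-negative cells (vertical) for the 284 genes called in CD244-negative cells; purple diamonds are the 15 whose effects differ between the subsets by the interaction test, and the diagonal marks equal effects. Ccl5, Ccr2 and Ifngr1 lie well above the diagonal and Ptpn6 well below it.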

How the data were processed

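Libraries of 100 sorted cells were made with molecular barcodes in an oligo-dT primer and template switching, per the labels' protocols. Reads were mapped with STAR to mm10, per the submitters' processing notes. The counting step, its strandedness, the annotation and the scaling are not given in the sources used here. The authors' deposited values are a signal for 24781 gene symbols in each library. Within a library they are molecules multiplied by 1 constant: 94.4% to 95.7% of the values of the 6 libraries were whole multiples (tolerance 1e-06). The table holds 0 spike-in rows. The test for normalized values was therefore used.

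Columns were rescaled to 10000. Genes above 0.5 per 10000 in at least 3 of the 6 libraries were tested with limma 3.58.1 (trend, robust; R 4.3.3) on log2(level + 0.5), two-sided, with Benjamini-Hochberg adjustment and a threshold of 0.05. Fold changes are on that scale and understate low genes. An exact test of 3 against 3 cannot go below 0.1. The interaction used all 12 libraries and the same genes. In 5 libraries edgeR 4.0.16 on rounded molecules called 106 genes higher and 80 lower; thymus replicate 2 was left out because a value below 1 molecule sets its minimum, from which the check of whole molecules starts. Intervals are exact 95% binomial intervals of molecule shares and cover counting error only. Folds given as at least a value set the group with 0 molecules to a floor of 3. They leave out the counting error of the other group and are no confidence limits. Positions are from GENCODE M21 (3119 of 3157 tested symbols matched 1 gene).

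Members, lists and tests were chosen with earlier results of these data known. The residency list holds Vps37b and Emb, the cAMP response list Crem and the chemokine receptor list P2ry10. Named genes were the 15 higher and 15 lower with the smallest p and groups that did not overlap, the 8 each way with the largest level difference, the gate genes, up to 5 members of each list by p, and 10 by interaction; not all are printed, and some results are not reported here. Other settings were the scaling, pseudocount, filter, all 12 libraries, quality weights, replicate block, thinning, edgeR, DESeq2 1.42.0 and each library left out, plus, chosen after seeing the data, TMM scaling and a total without Rn45s and Rn4.5s.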

Additional observations from a re-analysis of the deposited data

Results flagged for a closer look

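The lung minus thymus effect differed between CD244-negative and CD244-positive cells by limma's interaction test (Benjamini-Hochberg adjusted) for these named genes, given here with the difference of the 2 effects on the log2 scale. It was more positive in CD244-negative cells for D17H6S56E-5 (1.40), Ly6c2 (1.58), Gimap6 (2.10), Pabpc1 (0.81), Klrc1 (1.74), Gimap3 (1.39), Ccr2 (1.65), Ifngr1 (1.18), Ccl5 (2.34) and Thy1 (1.64). It was more negative in CD244-negative cells for Selenop (-4.71), Cst3 (-3.30), Fth1 (-1.66), Ftl1 (-1.95), Rps27 (-0.92), Zfp36 (-3.05), Vim (-2.38), Ctsc (-2.73), Ptpn6 (-2.25), Ndufb4 (-1.95) and Rpl35 (-0.72). Selenop, Cst3 and Ctsc are known to be abundant in myeloid cells, and the lung CD244-positive libraries held 17 to 32 molecules of Lyz2 and 84 to 269 of Cd74, against 0 and 0 to 1 in lung CD244-negative libraries. The part of that RNA in these differences was not tested.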

How the results depend on the processing

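The counts of 151 genes higher and 133 lower stayed within 1.5 times of these values in the other settings except the following. Unrescaled values gave 393 lower, and the total without ribosomal protein, mitochondrial and immediate early genes 221 lower. A mean of at least 2 per 10000 gave 100 higher, with fewer genes tested. On 5 libraries edgeR gave 80 lower, and DESeq2 61 higher and 74 lower, again with fewer genes tested. Leaving out 1 library gave 105 to 149 higher and 73 to 149 lower, and the fewest, 73, came without thymus replicate 1. The interaction gave 33 genes, and 22 to 56 on leaving out 1 library, with 56 without lung CD244-positive replicate 1. Of the 284 calls, DESeq2 tested 191 and kept 132, and edgeR tested 164 and kept 155. The cause of the changes under these settings was not tested.

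Of the 73 called genes described in the report, 59 passed the threshold without each library in turn. Reversed signs were seen in genes that were not called: Gata3 (-0.25 unrescaled, -0.091 to 0.41 on leaving out 1 library), Jund (-0.19 unrescaled, -0.021 to 0.42 on leaving out 1 library), Tbx21 (-0.93 to 0.32 on leaving out 1 library) and Srgn (-0.29 unrescaled, -0.0013 with quantile normalization). DESeq2 did not call 8 of the 54 of these it gave an adjusted p for, and thinning to the shallowest library lost 8 of the 73.

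Replicate numbers were not used as pairs. Deviations of same-numbered lung and thymus libraries correlated at 0.026, 0.0068 and 0.0076 across genes, and differently numbered ones at -0.030 to 0.022. The spread between replicates was little above counting noise, so such values cannot exclude pairing. The replicate block gave 163 higher and 144 lower, kept 283 of the 284 calls, and gave 35 genes for the interaction. In lung 3 molecules in a library corresponded to 0.932 to 1.01 per 10000, which limits what could be seen of genes below that level.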
